A study of Mus musculus with 6 samples.

Results

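The calcineurin and NFAT axis was examined as a set of 7 genes chosen by symbol, and all 7 were found among the 11031 rows of the deposited expression table, each on a single row. They were the NFAT transcription factor genes Nfatc1, Nfatc2 and Nfatc3, the calcineurin subunit genes Ppp3ca, Ppp3cb and Ppp3r1, and Rcan1, a regulator of calcineurin. RNA sequencing had been carried out on RAW264.7 cells, a virus-transformed mouse macrophage line that forms osteoclasts, the bone-resorbing cells, when given the cytokine RANKL. The 6 samples of the series were 3 Ctrl samples left untreated and 3 RANKL samples stimulated with RANKL, all collected at day 3. The labels name them as replicate biosamples of 1 cell line, without saying whether they came from separate cultures.

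The table names its 6 libraries only by the letters A and B with a number, and no sample label bears these letters, so none of these columns was used. A comparison of RANKL with Ctrl, the spread between replicates and the depth of each library were therefore not analysed here. The measurement used was the authors' mean level of each gene over the libraries of the table, on a log scale of FPKM, that is, fragments scaled to transcript length and to the size of the library. FPKM is per length, but which length the authors used for each gene is not given in the sources used here. In GENCODE M21 the merged exons of Ppp3cb cover 8809 bases and its longest transcript 3831, against 3228 and 2859 for Ppp3r1. Levels of different genes are set side by side below with this limit, and the order of genes with close levels may depend on that length. The mean pools libraries of different condition, so it says nothing about the condition in which a gene was expressed. No error is given for any level below, and whether neighbours in the order differ beyond their spread was not determined.

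Calcineurin is a phosphatase that is switched on by calcium and calmodulin. It consists of a catalytic A subunit, encoded by Ppp3ca, Ppp3cb or Ppp3cc, and a calcium-binding regulatory B subunit, encoded by Ppp3r1 in most tissues. It removes phosphates from the cytoplasmic NFAT proteins, which then enter the nucleus and bind DNA, often beside AP-1 factors, and kinases such as GSK3, DYRK and casein kinase 1 reverse this step. In osteoclast precursors NFATc1 is known as the master regulator of differentiation downstream of RANKL. The protein encoded by Rcan1 binds calcineurin and can inhibit it.

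The sequences around the transcription starts of Rcan1 are shown because this gene has separate promoters, and the downstream promoter is known to respond to calcineurin and NFAT. Both windows are from RefSeq on GRCm38.p6, read 5′ to 3′ on the minus strand from 250 bases before to 50 bases after the start, with the NFAT core GGAAA, or TTTCC on the other strand, in capitals.
Rcan1 upstream start, chr16:92466120-92466419: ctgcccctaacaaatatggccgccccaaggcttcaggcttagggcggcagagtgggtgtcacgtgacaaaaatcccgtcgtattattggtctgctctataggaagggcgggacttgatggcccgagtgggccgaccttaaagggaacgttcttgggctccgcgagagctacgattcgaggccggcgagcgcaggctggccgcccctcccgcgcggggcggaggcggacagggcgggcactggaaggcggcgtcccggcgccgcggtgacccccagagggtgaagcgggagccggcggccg
Rcan1 downstream start, chr16:92400029-92400328: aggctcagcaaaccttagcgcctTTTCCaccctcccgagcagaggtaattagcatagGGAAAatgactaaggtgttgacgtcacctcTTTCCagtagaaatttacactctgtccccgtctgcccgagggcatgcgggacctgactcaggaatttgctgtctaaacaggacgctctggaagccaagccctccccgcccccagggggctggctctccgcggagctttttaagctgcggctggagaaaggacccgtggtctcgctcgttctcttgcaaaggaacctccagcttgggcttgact
The upstream start lies 4698 bases into the annotated gene, and no window was available at the 5′ end of the gene itself. The window at the upstream start held no match to the core. The window at the downstream start held 3, with their leading base at -227, -193 and -163 from the start.

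Among the factors, Nfatc1 had the highest level, followed by Nfatc3 and Nfatc2. The authors' mean level of Nfatc1 was 5.38 on the log2 FPKM scale, at or above 83.8% of all rows. That of Nfatc3, a family member that is widely expressed, was 3.84, at or above 55.1% of rows. That of Nfatc2, best known from T cells, was 2.52, at or above 27.3% of rows. The level of Nfatc1 exceeded that of Nfatc3 by 1.54 and that of Nfatc2 by 2.86 on the log2 scale. Nfatc2 was the single member with a level below the median of all rows, which was 3.60.

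The calcineurin subunits were led by the regulatory subunit. Ppp3r1 had a mean level of 5.75, the highest of the 7 genes and at or above 87.7% of rows. The gene of the beta catalytic subunit, Ppp3cb, was at 5.28, at or above 82.7% of rows. The gene of the alpha catalytic subunit, Ppp3ca, was at 4.05, at or above 59.9% of rows. Ppp3cb thus exceeded Ppp3ca by 1.23 on the log2 scale, and the level of Ppp3r1 exceeded that of Ppp3cb by 0.47. The value of Ppp3r1 is less certain than the others, because 13.0% of its 50-mers also occur in transcripts of Wdr92. The span of Wdr92 on the same strand, introns included, covers 2948 of the 3228 exonic bases of Ppp3r1.

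Rcan1, the regulator, had a mean level of 4.46, at or above 68.4% of rows, between Ppp3cb and Ppp3ca. The levels of Nfatc1 and Ppp3cb differed by 0.10 on the log2 scale and those of Ppp3ca and Nfatc3 by 0.21, the smallest gaps between neighbours in the order. Of the 7 levels, 6 lay at or above the median of all rows and 3, those of Ppp3r1, Nfatc1 and Ppp3cb, above the upper quartile of all rows, 4.79.

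**Figure D1:**
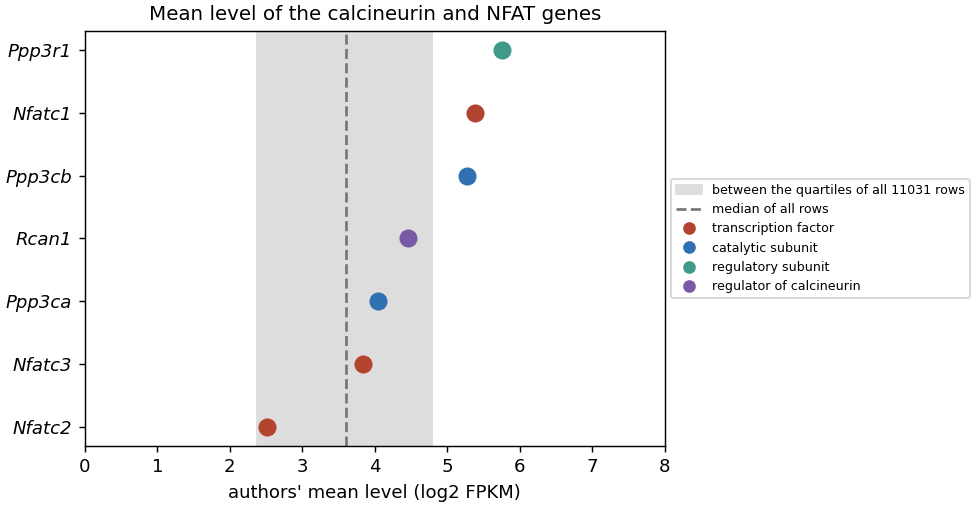
Authors' mean level of each of the 7 genes on the log2 FPKM scale, coloured by role, with the range between the quartiles of all 11031 rows shaded and their median dashed. Ppp3r1, Nfatc1 and Ppp3cb lie above the shaded range and Nfatc2, at 2.52, lies below the median; there are no error bars, since the columns of single libraries were left out.

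All 7 genes are annotated as protein-coding in GENCODE M21 on GRCm38, the build that corresponds to the mm10 named in the submitters' processing notes. On the plus strand lie Nfatc3 (chromosome 8, 106058840 to 106130537), Ppp3ca (chromosome 3, 136670124 to 136937727) and Ppp3r1 (chromosome 11, 17159263 to 17200375). On the minus strand lie Nfatc1 (chromosome 18, 80606205 to 80713071), Nfatc2 (chromosome 2, 168476410 to 168601657), Rcan1 (chromosome 16, 92391953 to 92470867) and Ppp3cb (chromosome 14, 20499364 to 20546573). Ppp3ca spans 267.6 kb, the longest of these loci, and Ppp3r1 41.1 kb, the shortest. The levels cover whole genes and do not separate isoforms.

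Several isoforms are annotated for each gene except Ppp3r1, which has a single protein-coding transcript with 510 coding bases. Nfatc1 has 6 protein-coding transcripts with coding lengths of 2109 to 2817 bases, Nfatc2 has 5 of 1356 to 2781 bases, and Nfatc3 has 3 of 3180 to 3228 bases. Rcan1 has 5, with coding lengths of 354 to 753 bases. Those of the catalytic subunits have 1533 to 1563 coding bases for Ppp3ca and 1491 to 1575 for Ppp3cb. Of the 50-mers of Nfatc3, 1.70% occur in transcripts of other genes, while for Nfatc1, Nfatc2, Rcan1, Ppp3ca and Ppp3cb none did. Exons of Ppp3cb and Rcan1 lie for 218 bases each within the span, introns included, of an annotated antisense gene. Those of Nfatc3 lie for 219 bases within the span of Esrp2 on the opposite strand. Per the labels the libraries kept strand, but whether the counting used it was not given in the sources used here.

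Promoter windows of 5 of the 7 genes, Nfatc2, Nfatc3, Ppp3cb, Ppp3r1 and Rcan1, were matched by symbol in RefSeq, 8 windows in all. The NFAT core GGAAA was searched on both strands and was found in 5 of these 8 windows, against 61.3% of the 32851 windows of all genes. A match is a description of the letters only. Windows with at least 3 matches made up 9.42% of all windows, and those with at least 4 made up 2.65%. The window of Ppp3cb held 4 matches, and the upstream window of Nfatc2 and the downstream window of Rcan1 held 3 each. The downstream window of Nfatc2 and the upstream window of Nfatc3 held 1 each. No match lay in the window of Ppp3r1, in the downstream window of Nfatc3 or in the upstream window of Rcan1.

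The windows of Ppp3cb and Nfatc2 are shown for their matches to the core, again in capitals and from RefSeq on GRCm38.p6, minus strand.
Ppp3cb, chr14:20546524-20546823: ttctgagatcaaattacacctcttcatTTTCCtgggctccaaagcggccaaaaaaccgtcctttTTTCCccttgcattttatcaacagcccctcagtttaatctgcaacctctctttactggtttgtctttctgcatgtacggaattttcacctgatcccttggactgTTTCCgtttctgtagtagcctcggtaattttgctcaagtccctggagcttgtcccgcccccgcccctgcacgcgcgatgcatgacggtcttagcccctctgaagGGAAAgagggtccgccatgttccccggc
Nfatc2 upstream start, chr2:168601608-168601907: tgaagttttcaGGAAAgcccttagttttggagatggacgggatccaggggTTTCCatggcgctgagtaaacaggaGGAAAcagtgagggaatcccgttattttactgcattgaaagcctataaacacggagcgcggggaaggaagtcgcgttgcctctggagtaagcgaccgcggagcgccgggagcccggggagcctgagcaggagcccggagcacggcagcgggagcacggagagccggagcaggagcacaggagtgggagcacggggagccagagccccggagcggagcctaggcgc
In Ppp3cb the leading bases of the matches were at -223, -186, -82 and 22 from the start, and in Nfatc2 at -239, -200 and -175.

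The downstream start of Rcan1 lies 70789 bases into the annotated gene and coincides with the 5′ end of annotated Rcan1 transcripts, within the locus that the longer transcripts span. Besides the 3 NFAT cores, its window held the CRE, TGACGTCA, at -175 and an AP-1 match, TGANTCA, at -110, neither overlapping a core. Both motifs read alike on either strand. CRE matches occurred in 1.79% and AP-1 matches in 7.81% of all windows, and no other window of these genes held either. The extended core GGAAAA, which contains GGAAA, was found in the window of Ppp3cb and in the downstream window of Rcan1, against 23.4% of all windows. The windows also differed in base composition, from 48.7% G and C in the upstream window of Nfatc3 to 70.7% in Ppp3r1, with a median of 52.7% over all windows.

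**Figure D2:**
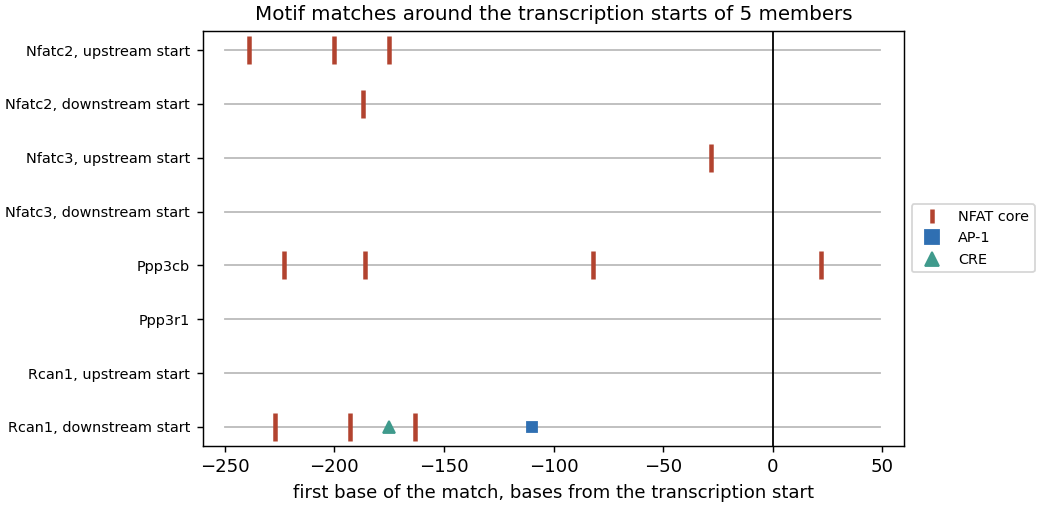
Position of each motif match, as the distance in bases of its leading base from the transcription start, in the 8 windows of 5 genes. The downstream start of Rcan1 holds 3 NFAT cores, a CRE at -175 and an AP-1 match at -110, whereas the windows of Ppp3r1, the upstream start of Rcan1 and the downstream start of Nfatc3 hold none.

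Of the remaining genes of the family, the table holds 3 of 6. Nfat5, an NFAT protein that responds to osmotic stress and does not need calcineurin, had a mean level of 5.04, between those of Ppp3cb and Rcan1. Ppp3cc, the gene of the gamma catalytic subunit, was at 3.77, below Ppp3cb and Ppp3ca. Rcan3, a relative of Rcan1, was at 3.49. Nfatc4, Ppp3r2 and Rcan2 had no row under these names.

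Most of the genes listed as regulators of calcineurin were at higher levels than its 3 subunits. The list leaves out Rcan1 and Rcan3, at 4.46 and 3.49, both below the median of the subunits. Of 7 genes listed the table holds 6, all at or above the median of all rows, with a median of 6.91 against 5.28 for the 3 calcineurin subunits and 4.46 for the 7 genes of the axis. The calmodulin genes Calm2 and Calm3 were at 7.69 and 6.20. Ppia, encoding cyclophilin A, through which cyclosporin acts on calcineurin, was at 10.00, and Fkbp1a, encoding the partner of FK506, was at 7.49. Chp1 and Cabin1, which encode proteins that can inhibit calcineurin, were at 6.33 and 3.61.

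The kinases that return NFAT to the cytoplasm spanned a wide range. Of 12 genes for NFAT kinases and Homer scaffold proteins the table holds 10, with a median of 3.84 and 6 at or above the median of all rows. Csnk1a1, Gsk3a and Csnk1d were highest, at 6.72, 5.55 and 5.36, whereas Gsk3b was at 3.85 and Dyrk1a at 3.96. Homer1, Homer3 and Dyrk2 were lowest, at 2.83, 2.90 and 3.02. Upstream of calcineurin, all 13 genes of calcium release and store-operated entry had a row, with a median of 3.67. The calcium pump gene Atp2a2 was at 7.01, the phospholipase gene Plcg2 at 4.96 against 2.60 for Plcg1, the calcium release channel gene Itpr1, the lowest of the list, at 2.30, the calcium sensor gene Stim1 at 3.30, and the channel genes Orai1, Orai2 and Orai3 at 3.40, 4.24 and 4.25.

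All 11 genes listed for the costimulatory relay that leads to phospholipase C gamma had a row, with a median of 5.22. The adaptors Tyrobp and Fcer1g were at 9.40 and 8.13, the kinases Syk and Btk at 4.64 and 5.22, and the receptor gene Oscar at 2.54. Of 11 DNA partners of NFAT the table holds 9, with a median of 5.04, led by Spi1 at 7.99, Junb at 7.07 and Fos at 7.00, and with Fosl1 lowest at 1.78. All 12 genes reported as NFATc1 targets in osteoclasts had a row, from Ctsk at 6.74 and Dcstamp at 6.21 to Itgb3 at 1.41 and Calcr at 0.45, with a median of 5.11. Of 8 reported repressors of Nfatc1 transcription the table holds 6, with a median of 3.60, from Id2 at 4.62 and Irf8 at 4.50 to Prdm1 at 1.46 and Id1 at 1.00. The level of Nfatc1 exceeded those of all 6.

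**Figure D3:**
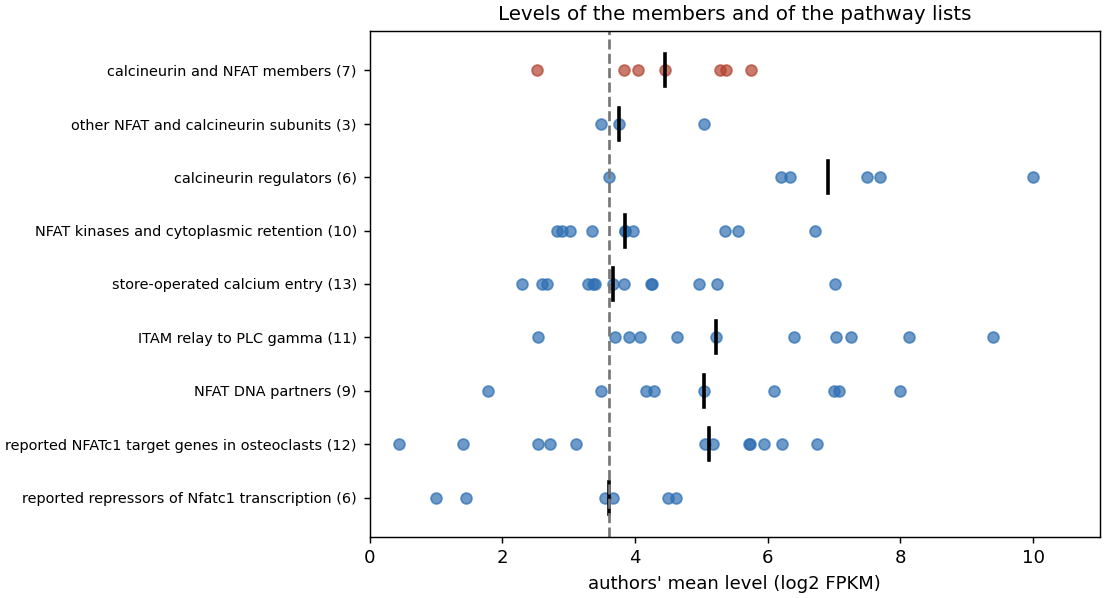
Authors' mean level on the log2 FPKM scale of each gene of the 7 members and of the 8 pathway lists, with the number of genes in the table in parentheses, a black bar at each list's median and a dashed line at the median of all rows, 3.60. The list of calcineurin regulators, which leaves out Rcan1 and Rcan3, has the highest median, 6.91, and the members lie between 2.52 and 5.75.

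In the pathway annotation of the table, 5 of the 7 genes, Ppp3r1, Nfatc1, Ppp3cb, Ppp3ca and Nfatc2, are assigned to the KEGG pathway of osteoclast differentiation, which covers 107 rows with a median level of 4.20. By level, Ppp3r1 ranked 27, Nfatc1 30, Ppp3cb 33, Ppp3ca 63 and Nfatc2 85 among these rows. Nfatc3 and Rcan1 are not assigned to it. Rcan1 carries 3 pathways, against 18 to 30 for the other members. All 7 share only the pathways of oxytocin signaling and of Kaposi sarcoma-associated herpesvirus infection, among the 36 that any of them carries. The calcium signaling pathway is assigned to the 3 subunit genes alone.

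The labelled cell type was checked against marker genes. All 10 macrophage markers had a row, with levels from 3.89 to 12.4 and Lyz2 highest, and so had all 9 osteoclast markers, from 0.45 to 6.74. Of the T cell, B cell and neutrophil markers, 6, 5 and 5 genes, 0 had a row, and of 8 stromal and osteoblast markers 1, Runx2, was listed, at 0.53. Of 4 dendritic cell markers 3 had a row, Cd83 at 4.61, Itgax at 4.05 and Zbtb46 at 1.06.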

How the data were processed

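RNA of 6 RAW264.7 samples was selected for poly(A) tails and sequenced as strand-specific paired-end libraries, per the labels. The submitters' processing notes name DESeq and mm10, and the authors used DESeq2 for their own differential test. How reads were aligned and counted, with which annotation, and why 11031 rows were kept is not given in the sources used here.

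A mean level was deposited for each row. This level, made by the authors from FPKM, was read as log2: powers of 2 of the column sum to 455332, a plausible FPKM total, against 6.97e+06 for powers of e. The offset added before the logarithm is not stated. The table also holds 12 columns of values per library, FPKM and counts, whose names match no sample label, and the authors' own comparison, a log2 fold change, a p-value, an adjusted p-value and a call. None of these 16 columns was used, so the tests planned on counts were not run, and neither depth per sample nor replicate error was computed.

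The share of rows at or below each level was computed with pandas 2.3.3 in Python 3.11.15. Older symbols were matched through RefSeq synonyms. Gene models and 50-mers came from GENCODE M21, and promoter windows from RefSeq. The members, the 8 lists and the motifs were chosen with earlier results of these data known. A gene of the regulator list is not reported here and was left out of its counts and median. Genes named are the members, the remaining genes of the family and regulator lists, the highest and lowest of the other lists, and further genes chosen after their values were seen, because the planned rule needed fold changes.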

Additional observations from a re-analysis of the deposited data

How the results depend on the processing

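None of the alternatives planned for the comparison of RANKL with Ctrl was run, namely other normalizations, another tool, other filters on low counts, a limma fit of FPKM, a fold threshold and leaving out each replicate, because no library could be assigned to a group. No paired analysis was possible because the columns of the table carry no sample label. The share of rows at or below each of the 7 levels was recomputed against 3 other sets of rows, an alternative chosen after seeing the data. It moved by -0.87 to 0.13 percentage points against rows with an Ensembl identifier or rows of protein-coding genes, and by -8.85 to -4.00 points against the 4610 rows with a KEGG pathway. Against those rows Nfatc3 was at 47.0%. The number of the 7 genes at or above the median was 6 against all rows, rows with an Ensembl identifier and rows of protein-coding genes, and 5 against rows with a KEGG pathway. Neither the set of rows nor the base of the logarithm can change the order of the 7 genes, so these settings do not test it. Other gene lengths for FPKM were not tried. The precision of the levels is unknown, since neither depth nor replicate values were used.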
